A study of Rattus norvegicus with 14 samples.

Results

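Gene expression in the plantaris muscle of Wistar rats on the control diet was measured on 4 of the 14 arrays of a study of dietary vitamin D. The 4 arrays were chosen by their titles, and no measured value entered the choice. Their diet held 1000 IU of vitamin D per kg. The labels state no age, sex or feeding time for the animals. The other 10 arrays, of muscles on a vitamin D depletion diet or on repletion after it, were not used, and no diets were compared. Total RNA of whole muscle was extracted with Trizol, labelled with a single dye, Cy3, and read on Agilent rat arrays, so that each spot has 1 brightness. The titles call the arrays biological replicates. Nothing further says that each came from its own animal, so an SD over the 4 arrays measures the spread between these samples.

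Plantaris is a calf muscle that extends the ankle, and in the rat it is known as a mostly fast muscle with a minor share of slow fibres. Fast and slow fibres build the same sarcomere from different genes: each has its own myosin heavy and light chains, its own troponins and its own calcium pump. Fast fibres lean on creatine phosphate, glycogen and glycolysis, and slow fibres on mitochondria. A whole muscle also holds vessels, connective tissue, nerve, fat, blood and satellite cells, the stem cells of muscle.

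The level of a gene is given here as log2 of the probe's signal over the 75th percentile of signals on its own array, as mean ± SD over the 4 arrays (n = 4 unless stated). A probe at 0 is thus brighter than most, and a step of 1 means 2 times the signal. Where a gene name had several probes, the brightest was read. The percentile of a gene is its place among all 26115 gene names on the array, from 0 for the dimmest to 100 for the brightest. It ranks probe signals and not transcript copies, because probes bind with different strength. In the 3785 gene names with several probes, the brightest and the dimmest probe of a gene differed by a median of 2.11 on the log2 scale, and by over 3 in 35.5% of them. No fold is given between genes for that reason. The number of arrays limits the precision.

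The probes of the fast and slow isoforms are shown first, because the account of the sarcomere rests on them. Each is 60 bases long, is printed 5′ to 3′ as the deposited array annotation gives it, and lies at the rn4 coordinates of the scanner files. Whether a probe lies in an exon or a UTR was not looked up, since no annotation of that build was used here. Capitals mark the bases that match the other probe of the pair in their best alignment without gaps. The probes of fast and slow troponin C share 48 of 59 aligned bases (81.4%), those of the myosin heavy chains Myh2 and Myh7 share 29 of 44 (65.9%), and those of Myh8 and Myh6 share 32 of 53 (60.4%).
Tnnc2, fast troponin C, chr3:155807460-155807519: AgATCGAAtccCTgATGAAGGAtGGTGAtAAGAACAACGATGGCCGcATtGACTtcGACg
Tnnc1, slow and cardiac troponin C, chr16:6642153-6642212: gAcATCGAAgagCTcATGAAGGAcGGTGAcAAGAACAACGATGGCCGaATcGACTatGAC
Myh2, fast 2A myosin heavy chain, chr10:53889275-53889334: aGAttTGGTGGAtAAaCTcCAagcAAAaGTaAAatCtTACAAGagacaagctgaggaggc
Myh7, slow myosin heavy chain, chr15:33073880-33073939: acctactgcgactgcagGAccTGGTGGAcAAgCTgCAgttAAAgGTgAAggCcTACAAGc
Myh8, perinatal myosin heavy chain, chr10:54002239-54002298: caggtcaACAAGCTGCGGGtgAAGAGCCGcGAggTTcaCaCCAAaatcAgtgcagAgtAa
Myh6, alpha-cardiac myosin heavy chain, chr15:33044576-33044983: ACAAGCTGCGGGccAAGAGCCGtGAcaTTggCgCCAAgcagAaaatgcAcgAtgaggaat
The probe of Myh4, fast 2B myosin heavy chain, has no close partner among these and is printed without capitals.
Myh4, chr10:53951729-53951788: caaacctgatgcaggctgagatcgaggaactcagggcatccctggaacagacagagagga
The Myh6 probe spans 408 bases of the genome in those coordinates, more than its own length.

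Most genes on the array gave a signal above background in this muscle. The scanner software's flag for a spot well above background was set on all 4 arrays for 20168 of 26115 gene names (77.2%), on none of them for 2575 (9.86%) and on some of them for 3372. Among the 17597 names that are gene symbols rather than predicted loci or unnamed probes, the shares were 79.4% on all 4 arrays and 8.87% on none. These shares are the background against which the counts of each gene list are to be read. On each array 82.8% to 88.1% of spots passed this flag, and no spot was saturated. Signals at the 75th percentile were 1963 to 2387. Relative to that percentile, the median level of the negative control spots was -9.97 to -9.37 on the log2 scale.

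The flag is generous. Odorant receptors, which sense smell in the nasal epithelium, make up 1175 of the gene names, and 31.2% of them were well above background on all 4 arrays. The 95th percentile of their levels was -3.06, and 12339 of all gene names (47.2%) lay above that level. Counts above this odorant receptor level are given beside the counts by the flag. Vomeronasal receptors, a second family of scent receptors, passed the flag on all 4 arrays in 49 of 166 cases, taste receptors in 13 of 36 and keratins, the filaments of skin, in 25 of 47. By contrast all 39 proteasome subunits, parts of the machine that degrades proteins, and 70 of 71 mitochondrial ribosomal proteins passed it.

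The ranking was steep. The 100 brightest gene names held 21.3% ± 0.89 of the summed signal (19.9%, 21.7%, 21.5% and 21.9% on control replicates 1 to 4), the 10 brightest held 3.14% ± 0.11 and the 1000 brightest 72.4% ± 1.21. Between 379 and 447 genes were enough for 50% of the signal. Of the 25 brightest names 12 were gene symbols, and each of these 12 encodes a part of the muscle fibre. In descending order they were Tnnc2, Myh8, Cryab, Tnni2, Tnnt3, Ckm, Mb, Eno3, Mylpf, Atp2a1, Acta1 and Myh1. The remaining 13 were predicted or unnamed and are described further on.

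**Figure D1:**
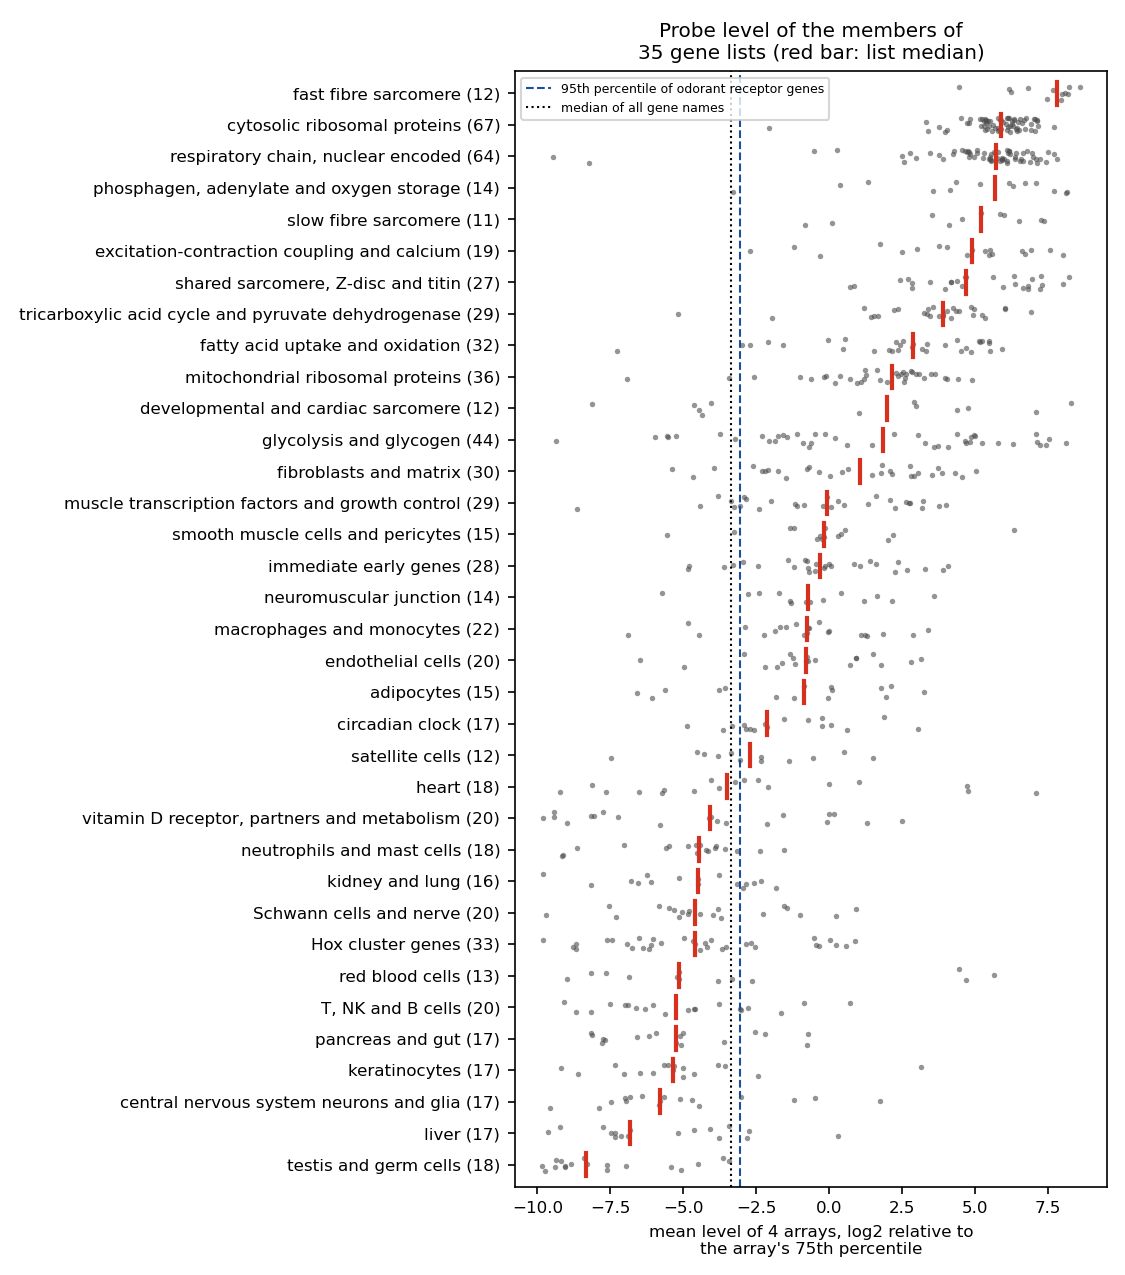
Mean level over the 4 control arrays (horizontal axis, log2 relative to the array's 75th percentile) of the measured members of 35 gene lists, 1 point per gene, with the list median as a red bar and the number of members in brackets. The fast fibre sarcomere list stands at the top with a median level of 7.82 and the testis and germ cell list at the bottom with -8.34, and the blue dashed line marks the 95th percentile of odorant receptor genes at -3.06.

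The fast sarcomere genes were the brightest of the 35 lists. All 12 measured members were well above background on all 4 arrays, all 12 lay in the top decile of the ranking and 9 in its top percent, with a median percentile of 99.86. Tnnc2, the calcium-binding subunit of fast troponin, whose probe is printed above, ranked first of all gene names. Its levels were 8.47, 8.76, 8.47 and 8.73 on replicates 1 to 4, a mean of 8.61 ± 0.16. The other fast troponin subunits stood close by: the inhibitory subunit Tnni2 was at 8.22 ± 0.13 and Tnnt3, which binds tropomyosin, at 8.19 ± 0.16. The 4 arrays differed little for all these subunits, and replicate 1 or 3 was the lowest. The fast regulatory light chain Mylpf was at 8.10 ± 0.14, the essential light chain Myl1 at 7.46 ± 0.05, the fast Z-disc actinin Actn3 at 7.97 ± 0.23 and tropomyosin Tpm1 at 7.67 ± 0.18. Dimmer, though still in the top decile, were the fast myosin-binding protein Mybpc2 at 6.15 ± 0.34 and Mylk2, the kinase that phosphorylates the fast light chain, at 4.46 ± 0.60. A second probe of Tpm1 was far dimmer than the one read, at -0.27.

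The 3 adult fast myosin heavy chains differed in how steady they were. Myh1, the 2X chain, read 7.62, 8.06, 8.20 and 8.05 on replicates 1 to 4 (7.98 ± 0.25). Myh4, the 2B chain of the fastest fibres, read 6.08, 7.43, 6.15 and 7.56 (6.80 ± 0.80). Myh2, the 2A chain of fast oxidative fibres, read 6.90, 5.74, 6.62 and 5.72 (6.24 ± 0.61). Replicates 1 and 3 were thus low for Myh4 and high for Myh2, and replicates 2 and 4 the reverse. Replicates 1 and 2 lay on the same slide and stood on opposite sides for both genes. Several genes named below also split replicates 1 and 3 from replicates 2 and 4. The share of all detected genes that do so was not counted. Such splits can be common: both of replicates 1 and 2 lay below both other arrays for 30.0% of detected genes and above both for 13.3%. All 3 chains were in the top 2% of the ranking, at percentiles of 99.9, 99.3 and 98.8.

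Slow sarcomere genes were also bright. All 11 were well above background on all 4 arrays, 9 lay in the top decile and 3 in the top percent, and the median percentile was 97.43. Slow troponin T, Tnnt1, was at 7.37 ± 0.16 and the slow myosin-binding protein Mybpc1 at 7.26 ± 0.12. Myh7, the slow myosin heavy chain, read 6.08, 6.66, 6.85 and 6.49 on the 4 arrays (6.52 ± 0.33) and ranked 242 of all gene names. The slow light chain Myl3 was at 6.00 ± 0.28 and the regulatory light chain Myl2 at 4.55 ± 0.38. Tnnc1, the troponin C of slow and cardiac fibres, was at 5.88 ± 0.18, and Tnni1, its inhibitory partner, at 5.23 ± 0.24. Whether the probes of Tnnc1 and Myh7, printed above, also bind the transcripts of Tnnc2 and Myh2 was not tested. Replicate 3 was the highest array for Tnnt1, Myh7, Tnnc1 and Tnni1, and all 11 members stood above their own mean there, while 10 of 11 stood below it on replicate 4. Of all genes well above background on all 4 arrays, 38.4%, 43.4%, 55.8% and 59.5% stood above their own mean on replicates 1 to 4, and such counts are to be read against these shares. The dimmest members were the tropomyosin Tpm3 at 0.11 ± 0.34 and Myh7b at -0.84 ± 0.44. Tpm3 has a second probe, and with the mean of both its percentile was 56.5 in place of 78.4.

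Genes known from the developing muscle and the heart spread over the whole ranking. Of 12 measured, 11 were well above background on all 4 arrays, 7 lay above the odorant receptor level and 6 in the top decile. Myh8, the perinatal myosin heavy chain, had the second brightest probe of all, at 8.11, 8.29, 8.50 and 8.30 (8.30 ± 0.16). Myh6, the alpha-cardiac chain, was at 6.67, 7.28, 7.44 and 7.04 (7.11 ± 0.33). The 4 arrays stood in the same order for Myh6 as for Myh7, the gene beside it in the genome, with replicate 1 lowest and replicate 3 highest. Myosin heavy chains are a family of near-identical genes, and the levels of Myh8 and Myh6 are uncertain for that reason: whether their probes, printed above, also bind the transcripts of other family members was not tested. Other members of this list were far dimmer. Cardiac troponin I, Tnni3, was at -4.04 ± 1.30, the atrial light chain Myl7 at -4.62 ± 1.22, the extraocular myosin Myh13 at -4.45 ± 1.40, and the cardiac myosin-binding protein Mybpc3 at -8.12 ± 0.94, well above background on 1 array.

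Myh3, the embryonic myosin heavy chain, which muscle makes during development and regeneration, had an SD of 1.70. It read 6.64, 3.13, 4.79 and 3.03 on replicates 1 to 4 (4.40 ± 1.70). Actc1, the actin of heart and developing muscle, read 3.38, 2.03, 3.77 and 2.51 (2.93 ± 0.79). Both genes were higher on replicates 1 and 3 than on replicates 2 and 4, and replicates 1 and 2, which shared a slide, differed for both. The embryonic light chain Myl4 was at 4.76 ± 0.31 and highest on replicate 1, and Mybph, a myosin-binding protein, was at 2.99 ± 0.35.

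**Figure D2:**
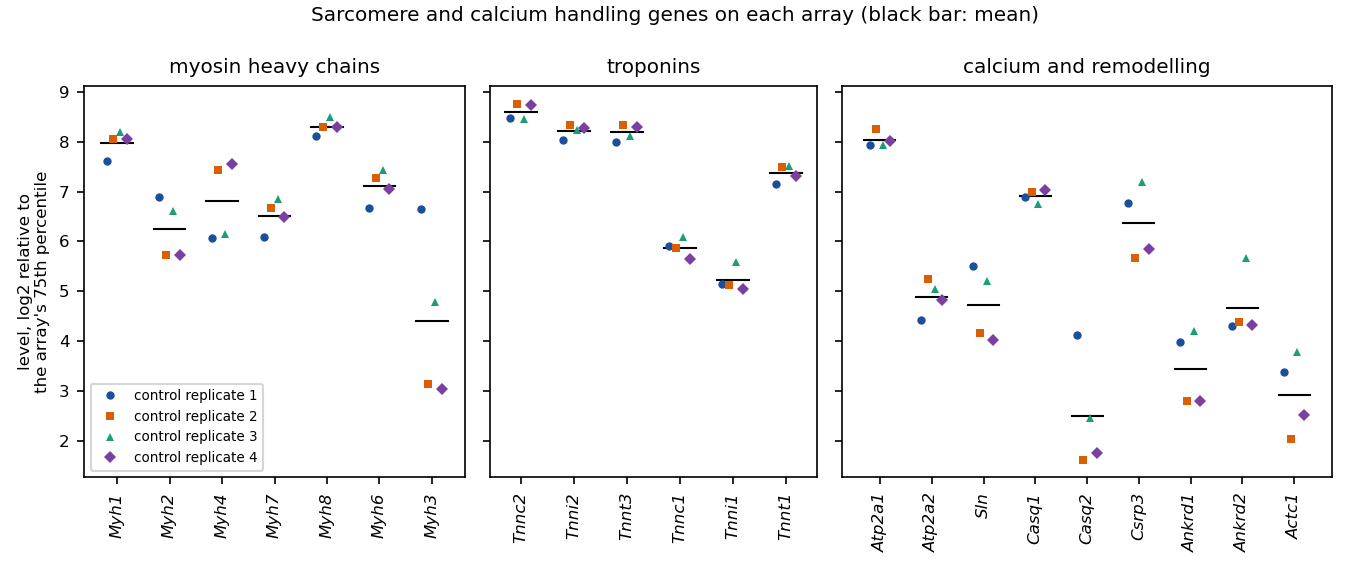
Level of sarcomere and calcium handling genes on each of the 4 control arrays (vertical axis, log2 relative to the array's 75th percentile), with 1 symbol per replicate and the mean as a black bar. Tnnc2, Myh8 and Atp2a1 differ little between arrays, whereas Myh4, Myh2, Myh3 and Casq2 spread widely, with replicates 1 and 3 on one side and replicates 2 and 4 on the other. How many of all detected genes split the arrays in this way was not counted.

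The parts of the sarcomere that fast and slow fibres share were bright throughout. All 27 members were well above background on all 4 arrays, and 25 lay in the top decile. Cryab, a small heat shock protein that guards the Z-disc, was at 8.24 ± 0.09, skeletal actin Acta1 at 8.03 ± 0.08, the calcineurin-binding protein Myoz1 at 7.31 ± 0.27 and Tcap, which caps titin, at 7.28 ± 0.37. The giant proteins titin (Ttn, 7.25 ± 0.10) and nebulin (Neb, 6.96 ± 0.05) were among the steadiest. The stretch-responsive members were the least steady. Csrp3, a Z-disc LIM protein, read 6.78, 5.66, 7.19 and 5.86 (6.37 ± 0.73), and Ankrd1, an ankyrin repeat protein that binds titin, read 3.98, 2.80, 4.20 and 2.80 (3.45 ± 0.75). Both were high on replicates 1 and 3 and low on replicates 2 and 4. Ankrd2, its relative of slow fibres, read 4.31, 4.39, 5.67 and 4.32 (4.67 ± 0.67), high on replicate 3 alone.

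The promoter of Acta1 is printed because it holds a CArG box and TATAAA, which are among the motifs searched in the promoters of these genes. It is the RefSeq sequence of assembly GRCr8, minus strand, chr19:68784145-68784444, from 250 bases before to 50 after the annotated start, with a CArG box (the binding motif of serum response factor) and TATAAA in capitals. Its 1 E-box is not marked. A match is a description of letters and not a binding site.
Acta1 promoter: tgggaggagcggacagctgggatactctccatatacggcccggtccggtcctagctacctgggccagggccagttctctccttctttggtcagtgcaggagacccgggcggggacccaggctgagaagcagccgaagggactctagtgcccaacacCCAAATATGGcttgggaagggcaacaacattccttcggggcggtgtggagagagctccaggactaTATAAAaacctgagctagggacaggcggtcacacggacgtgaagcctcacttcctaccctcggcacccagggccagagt
Of the fast, slow and shared sarcomere genes, 38 had a promoter in the RefSeq table, against 27457 promoters in all. On either strand, a CArG box was found in 10.5% of the 38 and in 1.64% of all, the MEF2 core (CTA and TAG with any 4 bases between) in 15.8% and 3.83%, TATAAA in 26.3% and 14.3%, and the E-box CANNTG in 78.9% and 71.6%. By list, the MEF2 core was in 0 of 10 fast and 1 of 9 slow promoters, a CArG box in 1 of each list, and TATAAA in 5 of the fast and 2 of the slow, so that 5 of the 6 MEF2 matches were in other promoters, those of the shared genes. Among the 100 brightest named genes with a promoter, a set that includes Acta1, TATAAA was in 23.0% and the E-box in 78.0%. A CArG box was in 5.0% of them and the MEF2 core in 7.0%. The motifs can overlap one another.

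Genes of calcium release and uptake were also bright, with 15 of 19 in the top decile and all 19 well above background on all 4 arrays. Atp2a1, the calcium pump of fast fibres, read 7.93, 8.26, 7.93 and 8.01 (8.03 ± 0.16). Parvalbumin, Pvalb, the calcium buffer of fast fibres, was at 7.58 ± 0.16, the fast calsequestrin Casq1 at 6.92 ± 0.12, and the voltage sensor Cacna1s at 6.70 ± 0.25. The release channel Ryr1 was at 5.47 ± 0.16. Each of these varied by less than 0.3 (SD) between arrays. The partners typical of slow fibres, heart or developing muscle varied more. Casq2, the slow and cardiac calsequestrin, read 4.12, 1.63, 2.46 and 1.76 (2.49 ± 1.14), and sarcolipin, Sln, which restrains the pump, read 5.50, 4.17, 5.20 and 4.03 (4.72 ± 0.74). Both were higher on replicates 1 and 3, a split whose share over all detected genes was not counted. The slow and cardiac pump Atp2a2 was at 4.89 ± 0.35 and phospholamban, Pln, at -1.20 ± 0.33. The dimmest member was the junctophilin Jph1 at -2.72 ± 0.18.

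Energy buffers were close to the top. All 14 members, which handle phosphagen, adenylates and oxygen, were well above background on all 4 arrays, 11 lay in the top decile and 5 in the top percent. Muscle creatine kinase, Ckm, was at 8.16 ± 0.16 and myoglobin, Mb, which stores oxygen, at 8.14 ± 0.10. Lactate dehydrogenase A, Ldha, was at 7.70 ± 0.20 and the mitochondrial creatine kinase Ckmt2 at 7.11 ± 0.09. The isoforms of other tissues stood lower in the ranking: brain creatine kinase Ckb was at percentile 80.2 and ubiquitous mitochondrial creatine kinase Ckmt1 at 50.6. Lactate dehydrogenase B, Ldhb, the heart form, was at 4.36 ± 0.27 (n = 3, since replicate 2 has no value). Ak1, adenylate kinase, read 6.92, 5.53, 5.34 and 7.40 (6.30 ± 1.02), which places replicates 1 and 4 above replicates 2 and 3.

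Glycolysis and glycogen genes fell into a bright group of muscle isoforms and a dim group of liver isoforms. Of 44 measured, 43 were well above background on all 4 arrays, 37 lay above the odorant receptor level and 21 in the top decile. Beta-enolase Eno3 read 7.91, 8.23, 8.19 and 8.20 (8.13 ± 0.15), Gapdh was at 7.53 ± 0.31, the muscle phosphoglycerate mutase Pgam2 at 7.43 ± 0.20 and aldolase A, Aldoa, at 7.22 ± 0.24. Muscle phosphofructokinase Pfkm was at 6.32 ± 0.33, muscle glycogen phosphorylase Pygm at 5.79 ± 0.40, and the insulin-responsive glucose transporter Slc2a4 at 4.64 ± 0.17. Hk2, the main hexokinase of muscle, had a probe at only -1.85 ± 0.56, percentile 63.0. Liver forms were low: liver phosphorylase Pygl was at -5.54 ± 0.60 and liver glycogen synthase Gys2 at -5.96 ± 0.35. The liver and islet glucose transporter Slc2a2, at -9.36 ± 0.33, was well above background on no array. On replicate 1, 12 of 43 members stood above their own mean, against 38.4% of all detected genes, with a median deviation of -0.24 against 0.23 on replicate 4.

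The nuclear genes of the respiratory chain were bright and steady. Of 64 members 62 were well above background on all 4 arrays, 60 lay in the top decile and 15 in the top percent. The brightest were the heart and muscle subunit Cox6a2 of cytochrome oxidase at 7.82 ± 0.14, the ATP synthase subunits Atp5f1a at 7.73 ± 0.09 and Atp5me at 7.51 ± 0.08, and Uqcr10 of complex III at 7.43 ± 0.16. The median SD of detected members was 0.13, against 0.27 for all genes detected on all 4 arrays. Brighter genes spread less, however: the median level of this list was 5.72, and all detected genes near a level of 5.65 had a median SD of 0.15. The exceptions were isoforms of other tissues: the testis subunit Cox8c, at -9.47 ± 0.31, was well above background on no array, testis cytochrome c, Cyct, at -8.22 ± 0.95, on 1, and the lung subunit Cox4i2 was at -0.51 ± 0.11.

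Genes of the tricarboxylic acid cycle and of fatty acid oxidation followed. All 29 of the first list were well above background on all 4 arrays and 22 lay in the top decile, led by the dehydrogenase Idh2 at 6.92 ± 0.13, Suclg1 at 6.03 ± 0.12, Idh3g at 6.02 ± 0.21 and Sdhd, of succinate dehydrogenase, at 5.34 ± 0.10. Citrate synthase, Cs, often used as a measure of mitochondrial content, was at 3.46 ± 0.07. Of the kinases that switch off pyruvate dehydrogenase, Pdk2 was at 4.46 ± 0.30 and Pdk4 at 2.22 ± 0.32, Pdk1 at -1.94 ± 0.23 and Pdk3 at -5.17 ± 0.67. In the fatty acid list 31 of 32 were well above background on all 4 arrays and 20 lay in the top decile. The acyl-CoA dehydrogenases Acadl (5.93 ± 0.09) and Acadm (5.50 ± 0.16), Hadh (5.49 ± 0.21) and the muscle carnitine palmitoyltransferase Cpt1b (5.48 ± 0.09) were its brightest members. Its liver counterpart Cpt1a was at -2.11 ± 0.34. A second probe of Cpt1b was at -2.15. Ucp3, the uncoupling protein of muscle, was at 5.25 ± 0.39, whereas Ucp1, that of brown fat, was at -7.28 ± 0.56 and well above background on 2 arrays.

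Ribosomal protein genes had the smallest spread of all lists. All 67 cytosolic members were well above background on all 4 arrays, 66 lay in the top decile, and the median SD was 0.094. Rplp0, of the ribosomal stalk, was at 7.71 ± 0.05, Rplp2 at 7.16 ± 0.08, Rpl24 at 7.14 ± 0.18 and Rps29 at 7.13 ± 0.12. Rpl3l, a form of Rpl3 found in striated muscle, was at 5.23 ± 0.19. The exception was Rpl15 at -2.05 ± 0.17. These genes have many processed copies in the genome, so single levels are uncertain. Replicate 2 was slightly high, with 63 of 67 members above their own mean and a median deviation of 0.10. The mitochondrial ribosomal proteins stood lower, with 17 of 36 in the top decile, led by Mrpl12 (4.89 ± 0.11), Mrpl14 (4.42 ± 0.20), Mrpl17 (4.05 ± 0.09) and Mrpl28 (3.96 ± 0.18). Mrps28, at -6.92 ± 0.49, was well above background on 3 arrays.

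**Figure D3:**
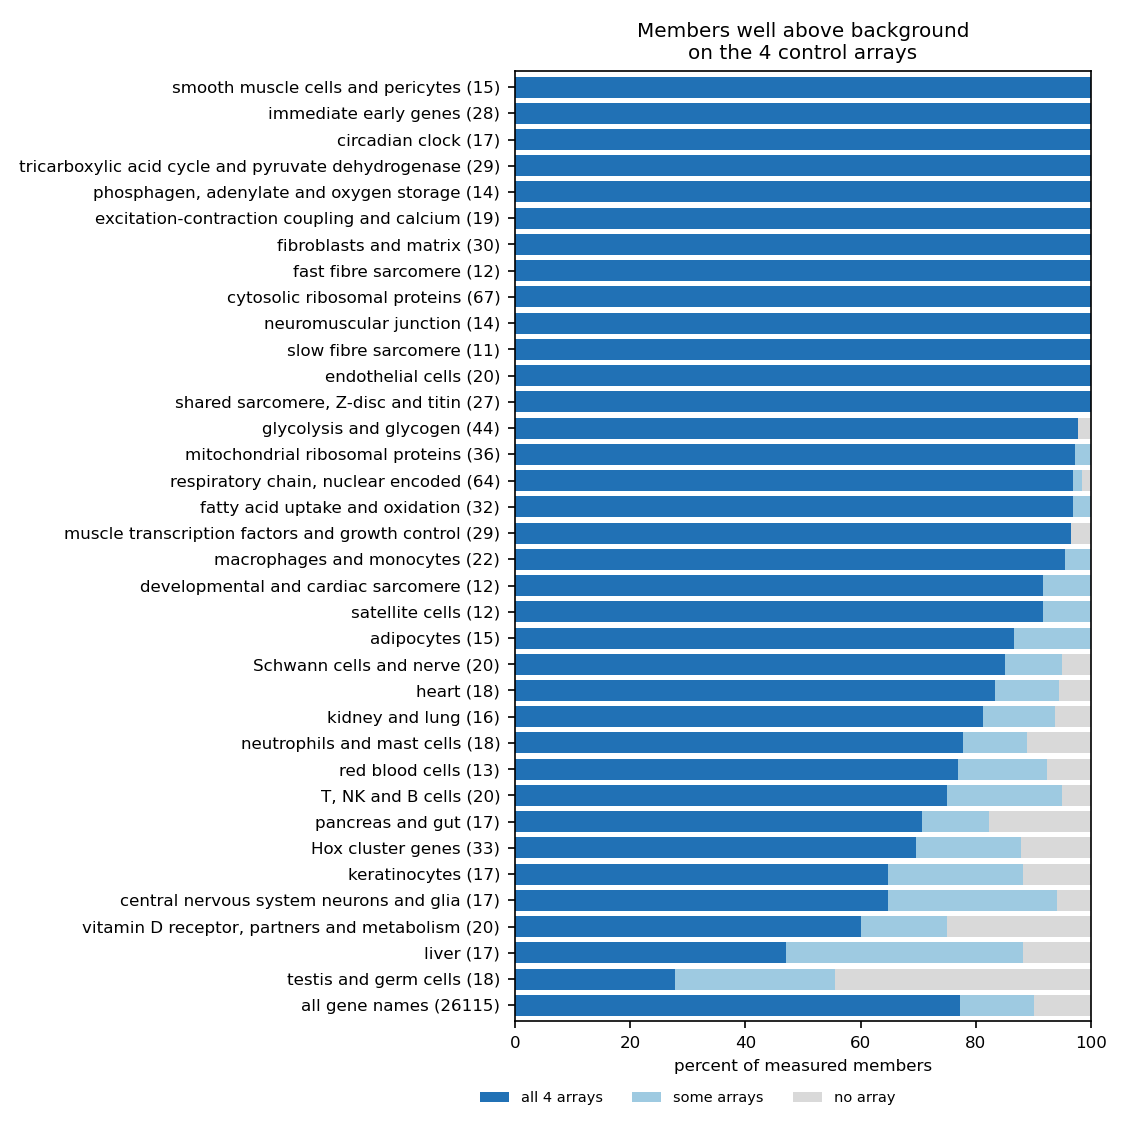
Share of the measured members of each list (horizontal axis, percent) that were well above background on all 4 control arrays, on some or on none, with the number of members in brackets and all gene names at the bottom. In 13 lists every member passed on all 4 arrays, whereas 5 of 18 testis and germ cell genes did, against 77.2% of all gene names.

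Transcription factors and growth regulators of muscle lay in the upper middle of the ranking, with 28 of 29 well above background on all 4 arrays, 24 above the odorant receptor level and a median percentile of 77.2. Mef2c, a partner of the myogenic factors, was at 4.01 ± 0.31, and the orphan receptor Esrra, which drives mitochondrial genes, at 3.77 ± 0.03. Among the myogenic factors themselves, Myf6 was at 3.20 ± 0.23 and Myf5 at -1.09 ± 0.11. Myod1, the factor associated with fast fibres, read 3.29, 4.02, 3.32 and 2.24 (3.22 ± 0.73), lowest on replicate 4. Myogenin, Myog, read 3.41, 2.45, 3.54 and 1.67 (2.77 ± 0.88), higher on replicates 1 and 3. The ubiquitin ligases of muscle wasting, Trim63 and Fbxo32, were at 2.64 ± 0.37 and 0.50 ± 0.31. Myostatin, Mstn, the brake on muscle growth, was at -4.42 ± 0.48 and the coactivator Ppargc1a at -3.06 ± 0.67. Prox1, a homeobox factor of slow fibres, was the only member well above background on no array (-8.64 ± 0.69).

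Satellite cell markers were near the middle of the ranking. Of 12, 11 were well above background on all 4 arrays (91.7%, against 77.2% of all gene names), and 7 lay above the odorant receptor level (58.3%, against 47.2%). Pax7, the gene that defines satellite cells, was at -7.48 ± 1.29 and passed on 2 arrays. Pax3 at 1.50 ± 0.11, the receptor tyrosine kinase inhibitor Spry1 at 0.52 ± 0.24, M-cadherin Cdh15 at -0.56 ± 0.26 and integrin Itga7 at -1.38 ± 0.39 were the brightest. The second probe of Pax3 was so much dimmer that the mean of both put the gene at percentile 58.5 in place of 86.7. In whole muscle, fewer cells of a type and less RNA per cell cannot be told apart, here or for any cell type below.

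Genes of the neuromuscular junction were all well above background on all 4 arrays (14 of 14). The acetylcholine receptor subunit Chrnb1 was at 3.60 ± 0.13, the kinase subunit Prkar1a at 2.14 ± 0.30, and agrin, Agrn, which clusters the receptors, at 1.66 ± 0.15. The alpha subunit Chrna1 read 2.19, 0.97, 1.62 and -0.00 (1.20 ± 0.94). Chrng, the subunit of the embryonic receptor, read 0.61, -1.06, 0.09 and -0.42, and Chrne, which replaces it at the adult junction, read -0.04, -1.57, -2.27 and -1.48. Replicate 1 was the highest for all 3, and replicates 1 and 3 stood above the other two for Chrna1 and Chrng but not for Chrne. Musk, the receptor kinase of the junction, was the dimmest at -5.74 ± 0.55.

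Non-muscle cells left a signal of differing strength. Vessel markers were measured on every array: all 20 endothelial genes were well above background on all 4 arrays, 18 lay above the odorant receptor level, and the median percentile was 71.8. Caveolin Cav1 was at 3.13 ± 0.27, the water channel Aqp1 at 2.80 ± 0.27, the VEGF receptor Kdr at 1.77 ± 0.19 and the fenestral protein Plvap at 1.51 ± 0.28. The defining adhesion molecules Pecam1 and Cdh5 were at 0.93 ± 0.16 and -1.24 ± 0.22, and the arterial factor Sox17 was the dimmest at -6.50 ± 0.26. Of the smooth muscle and pericyte list all 15 passed on all 4 arrays. Its brightest member, desmin (Des, 6.35 ± 0.13), is also made by the fibres. Next came the channel subunit Abcc9 at 2.19 ± 0.17, Smtn at 2.03 ± 0.21 and the pericyte proteoglycan Cspg4 at 0.54 ± 0.48, while smooth muscle actin Acta2 was at -0.24 ± 0.59. With the mean of its probes Abcc9 was at percentile 66.3.

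Connective tissue was the brightest of the non-muscle lists, with all 30 members well above background on all 4 arrays, 10 in the top decile and a median percentile of 84.2. Gelsolin, Gsn, which fibres make too, was at 5.04 ± 0.39, thrombospondin Thbs4 at 4.56 ± 0.70, and the proteoglycan decorin, Dcn, at 3.86 ± 0.15. Sparc, a matrix glycoprotein, read 4.94, 4.04, 4.14 and 4.18 (4.33 ± 0.42). Col1a1, of collagen I, read 2.86, 1.25, 1.91 and 1.23 (1.81 ± 0.77), and periostin, Postn, read -0.74, -3.37, -1.78 and -3.34 (-2.30 ± 1.28). Replicate 1 was the highest array for each of these 3. Over the whole list 24 of 30 members stood above their own mean on replicate 1 and 4 of 30 on replicate 2, the other array of that slide. The median deviations were 0.56, -0.40, 0.18 and -0.25 on replicates 1 to 4, the widest spread of any list of tissue cells expected in muscle.

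Fat cell genes were uneven. Of 15 measured, 13 were well above background on all 4 arrays and 10 lay above the odorant receptor level. Adipsin, Cfd, read 3.42, 4.34, 2.85 and 2.48 (3.27 ± 0.81) and adiponectin, Adipoq, 0.08, 1.70, -0.21 and -1.34 (0.06 ± 1.25). Replicate 2 was the highest and replicate 4 the lowest for both. Fabp4, the lipid carrier of fat and capillary cells, was at 2.11 ± 0.25, Cidea, a lipid droplet protein, at 1.97 ± 0.23 and Dgat2, which makes triglyceride, at 1.80 ± 0.17. The droplet coat Plin1 (-6.06 ± 1.04) and leptin (Lep, -6.58 ± 0.75) passed on 3 arrays.

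Macrophage genes were clearly measured, with 21 of 22 well above background on all 4 arrays and 19 above the odorant receptor level. Lysozyme Lyz2 was at 3.40 ± 0.51 (n = 3, since replicate 1 has no value), complement C1qb at 2.86 ± 0.24, the invariant chain Cd74 at 1.85 ± 0.15 and the adaptor Tyrobp at 1.29 ± 0.24. The list stood high on replicate 3, with 17 of 21 members above their own mean, and low on replicate 4, with 4 of 21. Lymphocyte genes passed on all 4 arrays in 15 of 20 cases, near the 77.2% of all gene names. Of these 20 genes 6 (30%) lay above the odorant receptor level, against 47.2% of all gene names, and the median percentile was 32.5. Pax5 at 0.71 ± 0.21, a B cell factor, and Cd3d at -0.85 ± 0.49, of the T cell receptor, led the list, with the granule protease Gzma at -1.64 ± 0.62 and Nkg7 at -2.78 ± 0.56. The B cell marker Ms4a1 was well above background on no array (-9.08 ± 0.55), and Cd3e and Cd8a on 1 each, so that the defining T and B cell markers did not stand together.

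Of the neutrophil and mast cell genes 14 of 18 passed on all 4 arrays (77.8%), near the 77.2% of all gene names. Only 2 lay above the odorant receptor level (11.1%, against 47.2% of all gene names). The mast cell proteases Cma1 (-1.56 ± 0.77), Tpsab1 (-2.38 ± 0.45), Cpa3 (-3.17 ± 0.58) and Tpsb2 (-3.56 ± 0.47) led. Mcpt1, a protease of mucosal mast cells, and Ngp, a neutrophil granule protein, passed on none. Red blood cells were visible mainly through the adult globins: Hba1 was at 5.67 ± 0.21, Hbb at 4.68 ± 0.45 and Hbb-b1 at 4.46 ± 0.17, near-identical genes whose single levels are uncertain. Alas2, which makes haem in red cell precursors, was at -2.66 ± 0.29, and the embryonic globin Hbe1 was well above background on no array.

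Some nerve genes were high on a single array. Of 20 Schwann cell and nerve genes 17 were well above background on all 4 arrays (85%, against 77.2% of all gene names). Above the odorant receptor level lay 6 (30%, against 47.2%). Mbp, a myelin protein, read -2.12, -2.02, -2.06 and 0.37 on replicates 1 to 4 (-1.46 ± 1.22). Sox10, the transcription factor of Schwann cells, read -2.44, -2.47, -2.45 and -1.65. In both genes replicate 4 was above the other arrays, and 14 of the 17 detected members stood above their own mean there, against 59.5% of all detected genes. Not every member did so: S100b and Egr2 were lowest on replicate 4, and Erbb3 was highest on replicate 3. Pmp2, a lipid-binding protein of myelin, read -9.90, -9.33, -5.80 and -4.24, and passed on 2 arrays. Of the 2 brightest members, Mag (0.24 ± 0.27) was also highest on replicate 4, whereas Pmp22 (0.91 ± 0.18) was highest on replicate 1. Cdh19 was well above background on no array.

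**Figure D4:**
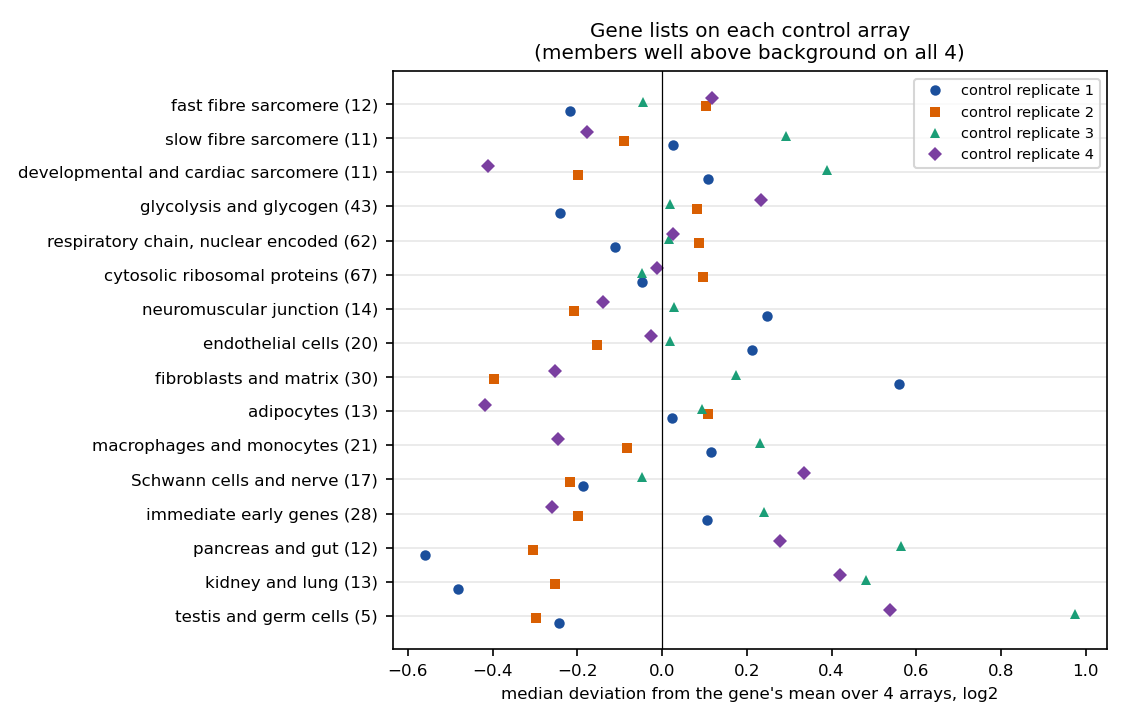
Median deviation of the members of 16 lists from their own mean (horizontal axis, log2) on each of the 4 control arrays, over members well above background on all 4, with their number in brackets. Ribosomal protein and respiratory chain lists stay near 0, fibroblast and matrix genes run from -0.40 on replicate 2 to 0.56 on replicate 1, and Schwann cell genes are highest on replicate 4.

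Genes induced by stimuli and genes of the clock also varied between arrays. All 28 immediate early genes were well above background on all 4 arrays. Nr4a1, an orphan receptor induced by contraction, was at 4.06 ± 0.25, Jund at 3.29 ± 0.23 and Jun at 2.67 ± 0.07. Atf3, a stress factor, read 3.98, 3.47, 5.36 and 2.81 (3.91 ± 1.08), and Nr4a3, a relative of Nr4a1, read 1.37, -1.75, -0.34 and -2.37 (-0.77 ± 1.66). Over the list, 23 of 28 members stood above their mean on replicate 3, 19 on replicate 1, 10 on replicate 4 and 6 on replicate 2. All 17 clock genes passed on all 4 arrays, led by the output factors Dbp (3.04 ± 0.34) and Tef (1.87 ± 0.30), the activator Arntl (0.60 ± 0.27) and Nfil3 (0.07 ± 0.65). The repressor Nr1d1 was at -1.53 ± 0.84.

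The list of the vitamin D receptor, its partners and vitamin D metabolism was mostly dim under the control diet. Of 20 measured, 12 were well above background on all 4 arrays, 3 on some and 5 on none, against 77.2% on all 4 and 9.86% on none for all gene names. The odorant receptor level was exceeded by 7 (35%, against 47.2%). Vdr, the vitamin D receptor, read -4.13, -4.24, -4.78 and -3.09 on replicates 1 to 4 (-4.06 ± 0.71) and stood at percentile 43.5, below the odorant receptor level though flagged well above background on all 4 arrays. Its partner receptor Rxrg read 1.91, 2.84, 2.33 and 2.88 (2.49 ± 0.46), at percentile 90.7, while Rxrb was at 0.16 ± 0.14 and Rxra at -3.83 ± 0.27. The coactivator Ncoa1 was at 1.29 ± 0.16. Of the enzymes, Cyp27a1 was at -0.00 ± 0.20, and Cyp27b1, which makes the active hormone in kidney, read -2.68, -2.58, -1.60 and -1.70 (-2.14 ± 0.57). Cyp24a1, the classical target gene that breaks the hormone down, passed on 1 array (-7.76 ± 1.26). The liver hydroxylase Cyp2r1, the plasma carrier Gc, the uptake receptor Lrp2 and the calcium buffers Calb1 and Calb2 were well above background on no array.

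Hox genes, which keep the position of a cell along the body and limb axes, were spread over the lower and middle ranking. Of 33 Hox and limb patterning genes 23 (69.7%) were well above background on all 4 arrays and 4 (12.1%) on none. The shares of all gene names were 77.2% and 9.86%. Those above the odorant receptor level numbered 10 (30.3%, against 47.2% of all gene names). Hoxc10 was the brightest at 0.88 ± 0.30, percentile 83.2, and Pitx1, the homeobox gene that specifies the hindlimb, was at 0.24 ± 0.42. Hoxd9 was at 0.03 ± 0.40, Hoxa13 at -0.35 ± 0.60 and Hoxa11 at -0.45 ± 0.40. A further probe among the brightest 4 is left unnamed because its symbol and its accession point to different genes. The forelimb factor Tbx5 was at -4.97 ± 0.62 and the hindlimb factor Tbx4 at -6.18 ± 0.57. Hoxb1, Hoxb3, Hoxb13 and Hoxd13 were well above background on no array.

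Markers of tissues that a calf muscle should lack were among the dimmest lists, though some of their members were above background. Testis and germ cell genes had a median percentile of 10.7, with 5 of 18 well above background on all 4 arrays, 8 on none and 0 above the odorant receptor level. Their brightest were the egg coat protein Zp3 (-3.44 ± 1.13) and the protamines Prm2 (-3.65 ± 0.89) and Prm1 (-4.48 ± 0.32), which pack sperm DNA, and Tnp1 (-5.09 ± 1.26). Dazl, Ddx4, Odf1, Sycp1, Pgk2, Zpbp, Sycp3 and Akap4 passed on none. Liver genes had a median percentile of 19.498: albumin, Alb, was at -7.33 ± 1.08 and passed on 2 arrays, and Tat and Cyp7a1, the enzyme that starts bile acid synthesis, on none. The brightest liver members were fetuin Ahsg at 0.30 ± 0.14, haptoglobin Hp at -2.73 ± 0.45, prothrombin F2 at -2.83 ± 0.59 and Serpina1 at -3.42 ± 0.73.

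For the lists of neurons, skin, pancreas and gut, and kidney and lung, median percentiles ran from 27.5 to 39.4. In these lists 64.7% to 81.25% of members were well above background on all 4 arrays, against 77.2% of all gene names. Above the odorant receptor level lay 11.8% to 31.25%, against 47.2%. Some lists of cells expected in muscle stood near these medians. Their median percentiles were 32.5 (lymphocytes), 33.3 (red blood cells), 38.4 (Schwann cells and nerve) and 39.7 (neutrophils and mast cells). The other lists of cells expected in muscle stood at 55.9 (satellite cells) or higher. In the list of neurons and glia, with 11 of 17 well above background on all 4 arrays, the water channel Aqp4 stood apart at 1.74 ± 0.70. It is known from fast muscle fibres too. It was followed by tyrosine hydroxylase Th (-0.49 ± 0.33), Stmn2 (-1.22 ± 0.42) and Camk2a (-3.01 ± 0.40), and the synaptic protein Syt1 passed on no array. In the pancreas and gut list 12 of 17 passed on all 4 arrays, led by chymotrypsinogen Ctrb1 (-0.74 ± 0.81), Cpa1 (-0.77 ± 0.26), Cck (-2.18 ± 0.37) and insulin Ins1 (-2.55 ± 0.10), while glucagon Gcg, Cdx2 and somatostatin Sst passed on none. In the kidney and lung list 13 of 16 passed, led by Slc22a6 (-1.84 ± 0.46), Aqp2 (-2.34 ± 1.17), Nphs1 (-2.56 ± 0.55) and Slc5a2 (-2.87 ± 0.80), and Cldn16 passed on none. Keratinocyte genes (11 of 17) were led by the transcription factor Tp63 at 3.15 ± 0.20, far above Krt14 (-2.43 ± 0.79), Krt5 (-3.58 ± 0.87) and Sfn (-3.80 ± 0.36), and Krt10 and Krt17 passed on none. With the mean of their probes Aqp4 was at percentile 73.1, Tp63 at 78.4, Ahsg at 58.4 and Nphs1 at 27.2, the last in place of 57.2. In the list of heart genes, which shares Myh6, Myl4, Sln and Tnnt2 with skeletal muscle, the natriuretic peptide Nppa was at -5.67 ± 0.58, and Tbx20 passed on no array.

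A large part of the brightest signal came from probes without a gene symbol. Of the 25 brightest names 13 were predicted or unnamed: 3 are described in the files as glyceraldehyde-3-phosphate dehydrogenase or like it, 1 as mitochondrially encoded and 9 as unknown. Of the 100 brightest, 56 were predicted or unnamed, 12 described as the dehydrogenase, 6 as mitochondrially encoded and 35 as unknown. Of these 56, 43 share a run of 16 bases with another of the 100, and 57 of all 100 share such a run with any other probe, against 18.0% of all gene names. The dehydrogenase is known for many processed copies in the rat genome. Levels of single copies are therefore uncertain.

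A few other bright symbols were picked out after their values were seen. H19, an imprinted noncoding RNA made in muscle, was at 7.83 ± 0.07. Stfa2, a stefin protease inhibitor of blood cells, was at 7.87 ± 0.10, and Ceacam9, a cell adhesion molecule of the carcinoembryonic antigen family, at 7.83 ± 0.15. The Stfa2 probe shares a run of 22 bases, printed because it is the longest found for it, with the probe of Peo1, the helicase of mitochondrial DNA, which was at 6.81 ± 0.12.
Run shared by Stfa2 and Peo1: TTGGGGATTTAGCTCAGTGGTA
In all, 5 probes, Stfa2 and Peo1 among them, hold at least 12 bases of that run on the same strand, with a median level of 5.21 and a range from -0.66 to 7.87. The 3 probes that hold it on the opposite strand had a median of -4.73. A further unnamed probe, which shares another run of 17 bases with Stfa2 on the same strand, was at -3.74. The Ceacam9 probe shares a run of 16 bases with the probe of Dcun1d1, which was at 2.34, on the opposite strand. What else any of these probes may bind was not tested, so the levels of Stfa2 and Ceacam9 are uncertain.

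The spread between the 4 arrays was larger than the error of a spot. Of 1390 probes printed in 10 spots per array, 1272 were well above background on all 4 arrays. Their SD was 0.076 within an array and 0.180 between arrays (medians, log2), and the SD between arrays was the larger for 1090 of the 1272 (85.7%). Over the 20090 genes well above background with a value on all 4 arrays the median SD was 0.27. It was over 0.5 in 24.9% and over 1 in 4.34% of these genes. Spread fell with brightness, from 0.57 near a level of -5.26 to 0.15 near 5.65.

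**Figure D5:**
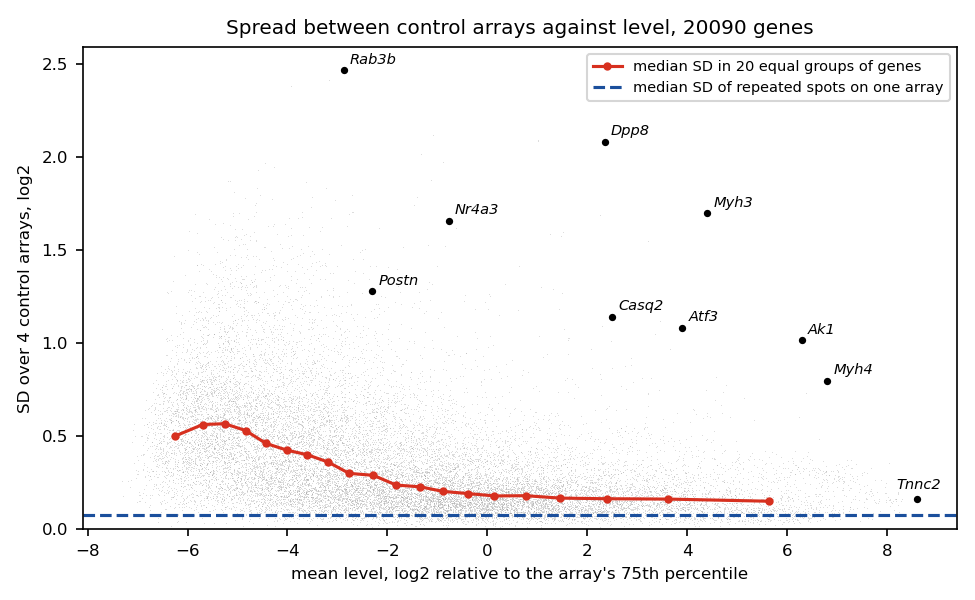
SD over the 4 control arrays (vertical axis, log2) against mean level (horizontal axis, log2 relative to the array's 75th percentile) of 20090 genes, with the median SD in 20 equal groups of genes as a red line and the median SD of repeated spots on one array, 0.076, as a blue dashed line. The red line falls from 0.57 near a level of -5.26 to 0.15 near 5.65, and named genes such as Myh3 (1.70), Ak1 (1.02) and Nr4a3 (1.66) lie far above it.

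Over all genes, the arrays that shared a slide differed least. The median absolute difference was 0.197 between replicates 1 and 2, which shared a slide, and 0.262 to 0.353 between the other pairs. The share of genes that differed by over 1 was 3.29% for that pair and 9.45% to 15.968% for the others. Among the 100 brightest genes that pair was not the most alike, with 83 in common against 80 to 93 for the others. Both arrays of the shared slide lay below both other arrays for 6030 of the 20090 genes (30.0%) and above both for 2665 (13.3%). Of the 10045 dimmer genes 4119 lay below (41.0%) and 900 above (8.96%), and of the 10045 brighter genes 1911 lay below and 1765 above (17.6%). Lists differed in this. The median deviation of pancreas and gut genes was -0.56 and -0.30 on replicates 1 and 2, against 0.56 and 0.28 on replicates 3 and 4, whereas for liver genes it was -0.08, -0.07, -0.12 and 0.02 on replicates 1 to 4. Slide and muscle cannot be told apart for replicates 3 and 4, each alone on its slide here.

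The genes with the largest SD were taken among gene symbols well above background on all 4 arrays, so dimmer genes with a larger SD are left out. Among the 15 with the largest SD were Rab3b, a GTPase of secretory vesicles (-5.31, -0.19, -4.61 and -1.40, SD 2.47), Fam111a, a protease (-1.49, -2.03, -6.75 and -2.43, SD 2.42), and Akr1b10, an aldo-keto reductase (-7.36, -3.49, -2.99 and -1.88, SD 2.38). Dpp8, a peptidase, was low on replicate 2 alone (3.33, -0.77, 3.25 and 3.59, SD 2.08), and Ltb, lymphotoxin beta, ran from -3.73 on replicate 1 to 1.19 on replicate 4. Igfn1, an immunoglobulin-like protein of the Z-disc, read 0.95, -1.25, 0.28 and -3.51. Pdha2, the testis form of a pyruvate dehydrogenase subunit, read -6.83, -6.80, -3.56 and -3.59, and the odorant receptor Olr1252 read -6.38, -6.15, -2.87 and -2.98, both low on the shared slide. The others were Csf2rb, Magea11, Tp73, Cckbr, Adad2, Dgat2l6 and Slc46a2, with SDs down to 1.78.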

How the data were processed

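The 4 control arrays of 14 were read from the deposited scanner files, made with Agilent Feature Extraction 11.5.1.1 per the file headers. Intensity values are the deposited processed signals, from which the authors' software had already subtracted background. The authors' normalized log2 values of the same arrays, deposited as a table and made with limma per the submitters' processing notes, served as an alternative, and 10 columns of that table, of other diets, were not used. From the scanner files, control spots and spots marked as outliers were left out, spots of a probe were averaged, and the level was log2 of the signal minus log2 of the array's 75th percentile. The brightest probe stood for each of 26115 gene names (30367 probes). Arrays differ in their spots marked as outliers (0.695% to 1.05%), and 86 genes have a value on fewer than 4 arrays. Control replicates 1 and 2 shared a slide.

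With 1 group there was no test and no p-value, and levels are given with the SD over 4 arrays. Of 848 list entries 813 were measured, 21 of them under another name in the files. Gene lists and members were chosen with earlier results of these data known. Genes named were the 25 brightest, the 4 brightest of each list, list members well above background on no array and list members with 1 array apart by Dixon's ratio. The 15 of largest SD were named too, taken among gene symbols well above background on all 4 arrays. A few genes that this rule names are not reported here. Predicted loci were counted and not named, and further genes of the lists are named for their role, chosen with values known. Alternatives were another background correction (normexp, offset 50), quantile and median scaling, the authors' values, the mean of probes, outlier spots kept, detected genes only, another detection flag, and each array left out. The scripts were tested on simulated data. Python 3.11.15, pandas 2.3.3, numpy 2.4.6, R 4.3.3 and limma 3.58.1 were used. Promoters are those of RefSeq.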

Additional observations from a re-analysis of the deposited data

Results flagged for a closer look

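In 40 of the 301 genes followed and in 2 of the 35 lists, 1 of the 4 arrays stood apart: its gap to the nearest array, as a share of the range, was above Dixon's 95% critical value. Chance alone marks about 1 in 20. Of the 20090 genes measured on all 4 arrays 4.63% were marked, and of the 712 list members 5.20%, so these shares are near that rate. The 13.3% among the genes followed is higher because such genes were added by this ratio.

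Replicate 1 was apart on the low side for beta-enolase Eno3 (0.881), the respiratory chain genes Cox6b1 (0.977), Ndufa6 (0.835), Uqcr10 (0.831) and Uqcr11 (0.833), the fatty acid oxidation gene Hadhb (0.896) and the mitochondrial ribosome genes Mrpl28 (0.887), Mrps18a (0.867) and Mrps25 (0.873). The clock gene Rora (0.888), the gut hormone Cck (0.841) and Hoxb13 (0.858) were low there too, as was the median of the clock list (0.877, with deviations of -0.18, -0.03, -0.02 and -0.00). It was apart on the high side for Sparc (0.848), the clock gene Ciart (0.872) and Cyp2r1 (0.855), the last not well above background.

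Replicate 2 was low for the water channel Aqp1 (0.889), Ckb (0.851), the smooth muscle gene Cnn1 (0.879), Mrps31 (0.852), tropomyosin Tpm2 (0.957) and Dpp8 (0.922). It was high for the mast cell protease Cma1 (0.914), the fat cell hormone resistin, Retn (0.841), and Rps25 (0.897).

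Replicate 3 was apart on the high side only among these genes. They were the stretch-responsive Ankrd2 (0.939), the matrix signal Ccn1 (0.920; 1.87, 1.89, 3.35 and 1.98), slow troponin Tnni1 (0.830), the atrial light chain Myl7 (0.886; -5.10, -5.19, -2.79 and -5.40), Got2 (0.851), Slc25a20 (0.870) and Mrpl12 (0.912). Markers of other tissues were Gapdhs (0.847), Ins2 (0.845) and Umod (0.847), and the T cell gene Cd3e (0.833) was well above background on 1 array.

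Replicate 4 was high for the myelin gene Mbp (0.958), the Schwann cell factor Sox10 (0.962) and the heart factor Gata4 (0.872). It was low for the macrophage receptor Cd163 (0.845), the aminotransferase Got1 (0.906) and the median of the fat cell list (0.836, with deviations of 0.02, 0.11, 0.09 and -0.42).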

How the results depend on the processing

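No paired analysis was possible because only 1 group was described. The median SD between arrays (0.27) was 0.310 with normexp, 0.304 with median centring and 0.203 in the authors' values, and 0.245 to 0.273 without 1 array. The median range between probes of a gene (2.11) was 1.94 over detected probes only and 1.18 with normexp. The share of the 100 brightest (21.3%) was 22.9% with the mean of probes and 21.025% to 21.7% without 1 array. Of the counts, the 2575 names above background on no array became 735 with the flag for a positive and significant signal, and 2615 to 3272 without 1 array. The 20168 on all arrays became 12339 above the odorant receptor level, an alternative chosen after the data were seen, and 20202 to 20898 without 1 array.

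The fast sarcomere list's median percentile (99.86) was 99.891 with normexp, 99.884 in the authors' values, 99.833 with the mean of probes and 99.819 among detected genes only. In the authors' values and among detected genes only, respectively, it was 96.8 and 96.7 for slow sarcomere genes, 97.9 and 97.7 for the respiratory chain, 67.3 and 63.5 for endothelium, 28.1 and 20.2 for lymphocytes, and 21.2 and 21.8 for germ cell genes. The respiratory chain was at 98.059 with normexp. Without 1 array the ranges were 99.856 to 99.868, 97.2 to 97.5, 98.1 to 98.2, 70.8 to 72.6, 31.5 to 33.3 and 10.2 to 11.8 in that order. Among detected genes only, fewer genes are ranked. The authors' values also cover less, with 26902 probes in place of 30367 and 269 of the 301 genes followed. List medians in both settings can therefore rest on fewer members than the main medians. Beyond this, the cause of the changes was not tested. With the mean of probes 14 of the 301 genes followed moved by over 10 percentile points, among them Mag (49.9), Mbp (44.8) and Myf5 (37.1). Fam111a was at percentile 62.8 without replicate 3, and Akr1b10 at 54.9 without replicate 1.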
